A study of Saccharomyces cerevisiae with 16 samples.

Results

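The data were read for 7 genes of budding yeast, Saccharomyces cerevisiae: the aryl-alcohol dehydrogenase genes AAD3, AAD4, AAD6, AAD10, AAD14 and AAD15, and YJR154W, the gene next to AAD10. They were taken by gene symbol, 7 of the 6388 gene probes on the array, and were selected on their log2 strain over reference values across the 8 genotypes, seen in an earlier look at these same arrays. Their strain over reference values, and every difference between strains made from those values, are therefore given as a description, with no p-value. Where the call rule given below is applied to them, nothing is read from the counts. The study profiled total RNA from 8 yeast genotypes on 16 two-colour arrays, 2 per genotype, each strain hybridised against 1 common reference pool. It concerns FCP1, which encodes the phosphatase that removes phosphate from the C-terminal tail of RNA polymerase II, and CDK8, listed on the array as SSN3, the kinase of the Mediator complex.

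All 8 strains carry a FLAG-tagged FCP1 allele. In 1 strain the allele is labelled fcp1-mut, with no further description of the change. In 4 strains it is a truncation labelled by the numbers 1:713, 1:666, 1:609 and 1:594. In the last 3 strains the truncations 1:666, 1:609 and 1:594 are combined with cdk8-del, a deletion of CDK8. No drug or stress is named for any sample; cultures were grown to mid-log phase. The genotype of the reference pool is not given, although the series description speaks of comparison with wild type, and its RNA was isolated by a different protocol from that of the strains. Among the samples analysed here, none is labelled as full-length FCP1, and none as cdk8-del with intact FCP1. The 2 arrays of a strain, a and b, have opposite dyes, the strain in Cy3 on a and in Cy5 on b; the labels do not say that they came from separate cultures, so p-values measure the spread between these arrays, which may be technical.

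Aryl-alcohol dehydrogenase genes encode proteins of the aldo-keto reductase superfamily, enzymes that use NADPH to reduce aldehydes and ketones to alcohols. They were named for their similarity to an enzyme of a lignin-degrading fungus, and most lie near chromosome ends. Their physiological substrates in yeast are not settled; AAD4 and AAD6 are known to be induced by oxidants through Yap1, the transcription factor of the oxidative stress response. YJR154W has no assigned role. The RefSeq table used for names lists AAD6 as a pseudogene. The family members resemble each other closely in sequence, probe sequences were not used here, and how far each probe reports only its own gene cannot be told apart from these data.

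Several measurements of the strains bear on every comparison below. SSN3 fell with cdk8-del by 1.30 in the 1:666 strain, by 1.53 in 1:609 and by 1.82 in 1:594 on the log2 scale (SE 0.180, adjusted p under the call limit in each). The FCP1 probe was at -3.49 and -2.77 log2 strain over reference in 1:609 and 1:594, and at -0.27 in 1:666; where it lies relative to the deleted part was not tested. MET17, a methionine synthesis gene, was at -4.51 in 1:666 and -4.54 in 1:594 but at -0.05 and -0.44 in the same truncations with cdk8-del, so these pairs differ by 4.46 and 4.10 in a gene often deleted as a marker in laboratory strains. In 1:609 MET17 differed by 0.28 between the pair and was not called. LYS2, a lysine synthesis gene also used as a marker, was 3.33 higher in 1:609 and 2.65 higher in 1:594 than in 1:713, and all 4 measured alpha-specific mating genes were called lower there, with medians of -2.01 and -1.85. The part of these background differences in the results below was not tested. Before scaling, the median signal of an array was 291.7 to 1058 in the strain channel and 210.8 to 974 in the reference channel.

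Across the 8 strains, all 7 genes had their lowest means in the strains with cdk8-del; with the external-control scaling described below this held for AAD10 and YJR154W but not for the other 5. AAD10 and YJR154W went from above the reference pool to below it, AAD3 and AAD15 from near the pool to far below it, and AAD4, AAD6 and AAD14 moved over a smaller range. The values are log2 ratios of the strain over the reference pool, each the mean of 2 spots on an array after background correction and intensity-dependent (lowess) scaling.

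**Figure D1:**
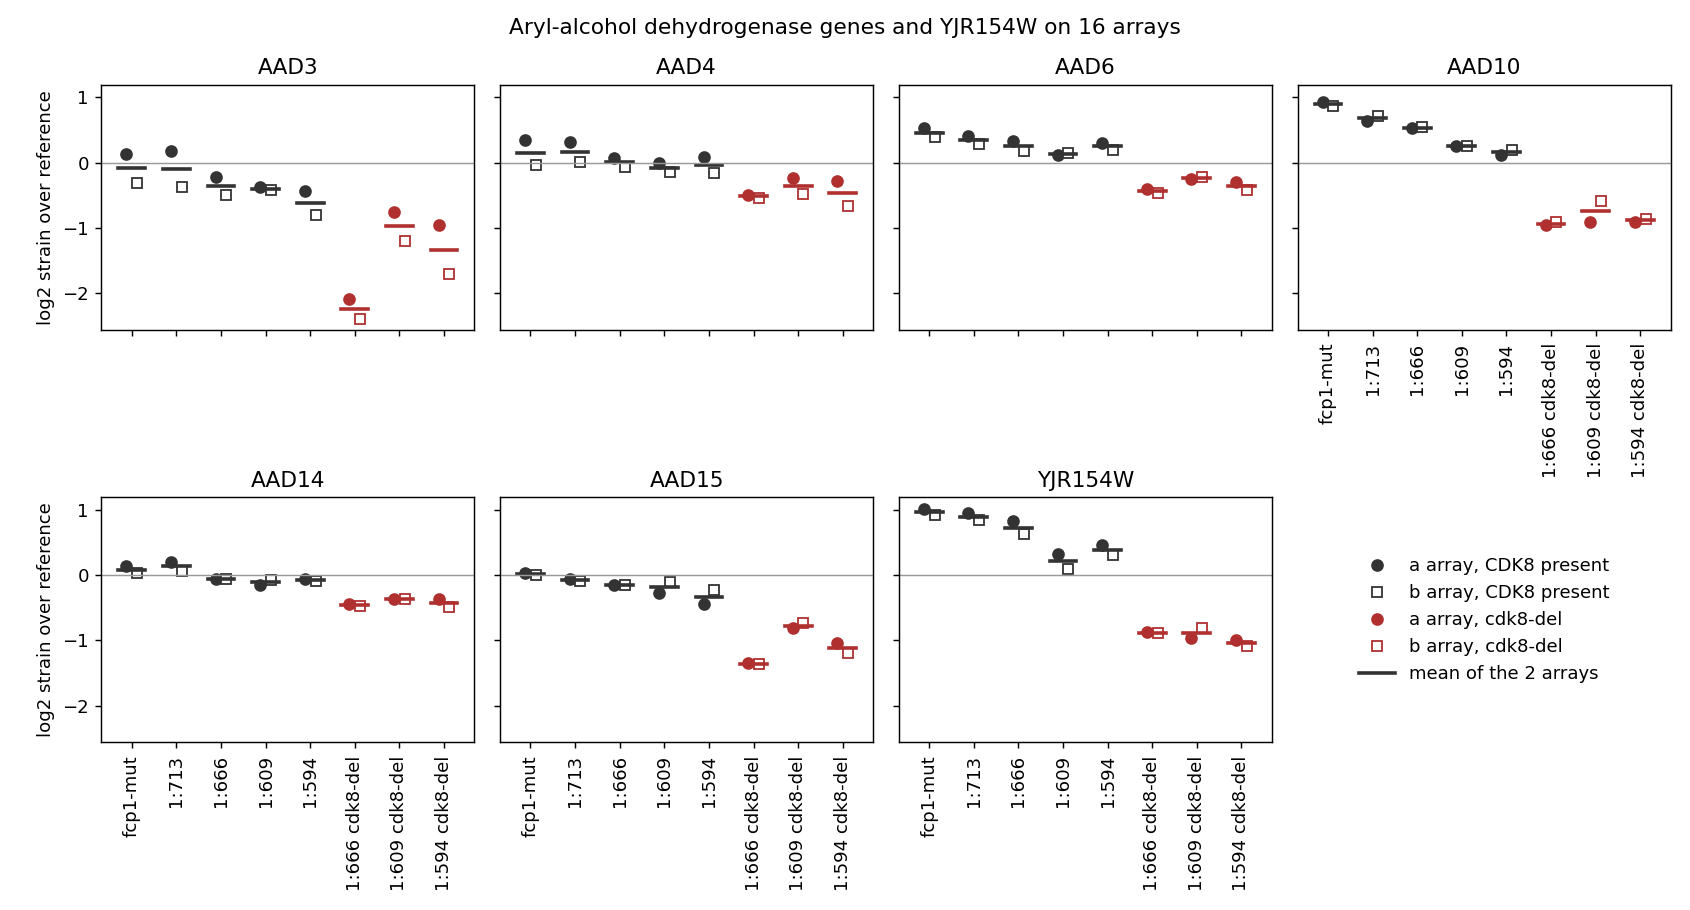
Each panel shows 1 gene, with log2 strain over reference on the vertical axis and the 8 strains on the horizontal axis; filled circles are a arrays, open squares b arrays, bars their means, and red marks the strains with cdk8-del. In 6 of the 7 panels all 6 red points lie below all 10 dark points; this order of strains does not hold for 5 of the genes on external-control scaling, and in the AAD3 panel the a array of 1:609 cdk8-del, at -0.75, lies above the b array of 1:594, at -0.80.

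AAD10, at the locus YJR155W, was above the reference in every strain with CDK8, but below it in 1:609 and 1:594, at -0.41 and -0.47, when scaled on the external controls. Its a and b arrays read 0.92 and 0.87 in fcp1-mut, 0.64 and 0.71 in 1:713, 0.53 and 0.54 in 1:666, 0.25 and 0.25 in 1:609, and 0.12 and 0.19 in 1:594. With cdk8-del they read -0.95 and -0.91 in 1:666, -0.90 and -0.59 in 1:609, and -0.90 and -0.86 in 1:594. Each of the 5 strains with CDK8 lay wholly below the one before it in that order, with no overlap of arrays, and the 3 cdk8-del strains lay below them all. Among the cdk8-del strains, 1:609 and 1:594 overlapped.

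YJR154W lies beside AAD10 and is read in the same direction on the chromosome. It read 1.02 and 0.93 in fcp1-mut, 0.94 and 0.85 in 1:713, 0.83 and 0.63 in 1:666, 0.32 and 0.10 in 1:609, and 0.46 and 0.30 in 1:594. With cdk8-del it read -0.87 and -0.89 in 1:666, -0.95 and -0.80 in 1:609, and -0.997 and -1.09 in 1:594. fcp1-mut and 1:713 overlapped, as did 1:609 and 1:594, while 1:666 lay between these pairs without overlap. Its lowest mean was in 1:594 cdk8-del and that of the other 6 genes in 1:666 cdk8-del; with plain background subtraction that of YJR154W was also in 1:666 cdk8-del, and with external-control scaling those of AAD4, AAD6, AAD10 and AAD14 were in 1:594 cdk8-del.

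AAD15, at YOL165C, encodes a shorter protein than most of the family. It read 0.03 and 0.01 in fcp1-mut, -0.05 and -0.09 in 1:713, -0.14 and -0.15 in 1:666, -0.27 and -0.10 in 1:609, and -0.44 and -0.23 in 1:594. With cdk8-del it read -1.35 and -1.36 in 1:666, -0.81 and -0.73 in 1:609, and -1.03 and -1.20 in 1:594. The 3 cdk8-del strains did not overlap each other, and all were below the strains with CDK8.

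AAD3, at YCR107W, had the widest range of the 7 and the widest scatter between its 2 arrays. It read 0.13 and -0.31 in fcp1-mut, 0.18 and -0.37 in 1:713, -0.22 and -0.49 in 1:666, -0.38 and -0.42 in 1:609, and -0.44 and -0.80 in 1:594. With cdk8-del it read -2.09 and -2.39 in 1:666, -0.75 and -1.20 in 1:609, and -0.96 and -1.71 in 1:594. The value in 1:666 cdk8-del stood apart below all other strains, whereas 1:609 cdk8-del and 1:594 cdk8-del overlapped each other. The a array was above the b array in 8 of 8 strains, with a median gap of 0.40, so part of this scatter followed the dye orientation. For AAD4 the same held in 8 of 8 strains with a median gap of 0.24, whereas for AAD10 the a array was above in 2 of 8.

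AAD4, at YDL243C, stayed within a narrow range of the pool. It read 0.35 and -0.04 in fcp1-mut, 0.31 and 0.02 in 1:713, 0.07 and -0.07 in 1:666, -0.01 and -0.15 in 1:609, and 0.09 and -0.16 in 1:594. With cdk8-del it read -0.50 and -0.54 in 1:666, -0.24 and -0.48 in 1:609, and -0.28 and -0.66 in 1:594. The strains with CDK8 overlapped from neighbour to neighbour in order of their means, and so did the 3 cdk8-del strains; the break lay between the 2 sets.

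AAD6, at YFL056C, was above the pool in all 5 strains with CDK8 and below it in all 3 without, whereas scaled on the external controls it was below the pool in all 8. It read 0.52 and 0.39 in fcp1-mut, 0.41 and 0.29 in 1:713, 0.34 and 0.17 in 1:666, 0.11 and 0.15 in 1:609, and 0.30 and 0.20 in 1:594. With cdk8-del it read -0.41 and -0.46 in 1:666, -0.24 and -0.22 in 1:609, and -0.29 and -0.41 in 1:594. Neither 1:609 nor its cdk8-del strain overlapped its neighbours in the order of means.

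AAD14, at YNL331C, had the narrowest range, 0.59 between its highest and lowest strain means. It read 0.14 and 0.03 in fcp1-mut, 0.21 and 0.07 in 1:713, -0.05 and -0.06 in 1:666, -0.15 and -0.07 in 1:609, and -0.05 and -0.10 in 1:594. With cdk8-del it read -0.44 and -0.48 in 1:666, -0.36 and -0.37 in 1:609, and -0.36 and -0.49 in 1:594. The ranges of the others were 0.68 for AAD4, 0.89 for AAD6, 1.38 for AAD15, 1.83 for AAD10, 2.02 for YJR154W and 2.15 for AAD3. Over the 8 strain means the 21 pairs of genes correlated between 0.859, for AAD3 with YJR154W, and 0.997, for AAD4 with AAD14; all share the reference pool and the arrays, and the correlations are a description.

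Against the reference pool, the call rule was a change of more than 1.7 times with a p-value under 0.01 in limma, adjusted by Benjamini and Hochberg's method over all 6388 probes. AAD10 and YJR154W were called higher in fcp1-mut, where 0.125% of all probes were, and YJR154W alone in 1:713, where 0.0626% were. AAD3, AAD10, AAD15 and YJR154W were called lower in 1:666 cdk8-del and in 1:594 cdk8-del, against 0.924% and 2% of all probes. In 1:609 cdk8-del AAD3, AAD15 and YJR154W were called lower, against 1.91%. None of the 7 was called lower in 1:666, 1:609 or 1:594, where 0.501%, 2.4% and 1.6% of probes were. In 1:609 cdk8-del, AAD15 at -0.77 lay just past the fold limit and AAD10 at -0.75 just short of it. Nothing is read from these counts, since the same values chose the genes. The AAD3 and AAD15 calls in 1:609 cdk8-del were lost without its a array, at -1.20 and -0.73, and the AAD3 call also without its b array, at -0.75. Without the b array of 1:594 cdk8-del the AAD3 call there was lost, at -0.96, and without the b array of 1:609 cdk8-del AAD10 was called, at -0.90.

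Setting each truncation with cdk8-del beside the same truncation with CDK8 shows the difference at matched FCP1 alleles. AAD10 differed by -1.47 in 1:666, -0.998 in 1:609 and -1.04 in 1:594 (SE 0.0890, 2 arrays against 2), which is 2.77, 1.998 and 2.06 times lower. YJR154W, its neighbour, differed by -1.61, -1.09 and -1.42 (SE 0.101). Among all 6388 probes ranked from the lowest difference, YJR154W was 8th, 12th and 8th and AAD10 was 10th, 14th and 16th. AAD3 was 2nd, 43rd and 71st, and AAD15 was 12th, 38th and 45th. AAD6 was 61st, 197th and 95th, AAD4 151st, 397th and 180th, and AAD14 320th, 510th and 308th. The same values chose the genes, so nothing is read from these ranks.

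AAD3 differed by -1.89, -0.58 and -0.71 (SE 0.276), so its difference in 1:666 was far larger than in the other truncations. With the array letter fitted as a block, the SE was 0.119 for AAD3 and 0.077 for AAD4. AAD15 differed by -1.21, -0.59 and -0.78 (SE 0.0883). AAD6, one of the oxidant-induced genes, differed by -0.69, -0.36 and -0.60 (SE 0.0823). AAD4, the other of them, differed by -0.52, -0.28 and -0.43 (SE 0.167), and AAD14 by -0.40, -0.25 and -0.35 (SE 0.0729). Every gene had its largest difference in 1:666 and its smallest in 1:609; whether the truncations differ in this was not tested, because the values chose the genes. In the 1:609 pair, where MET17 was not called, 2 of 4 alpha-specific genes were called higher with cdk8-del, and the median of the 4 was 0.67; their part in the result was not tested.

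**Figure D2:**
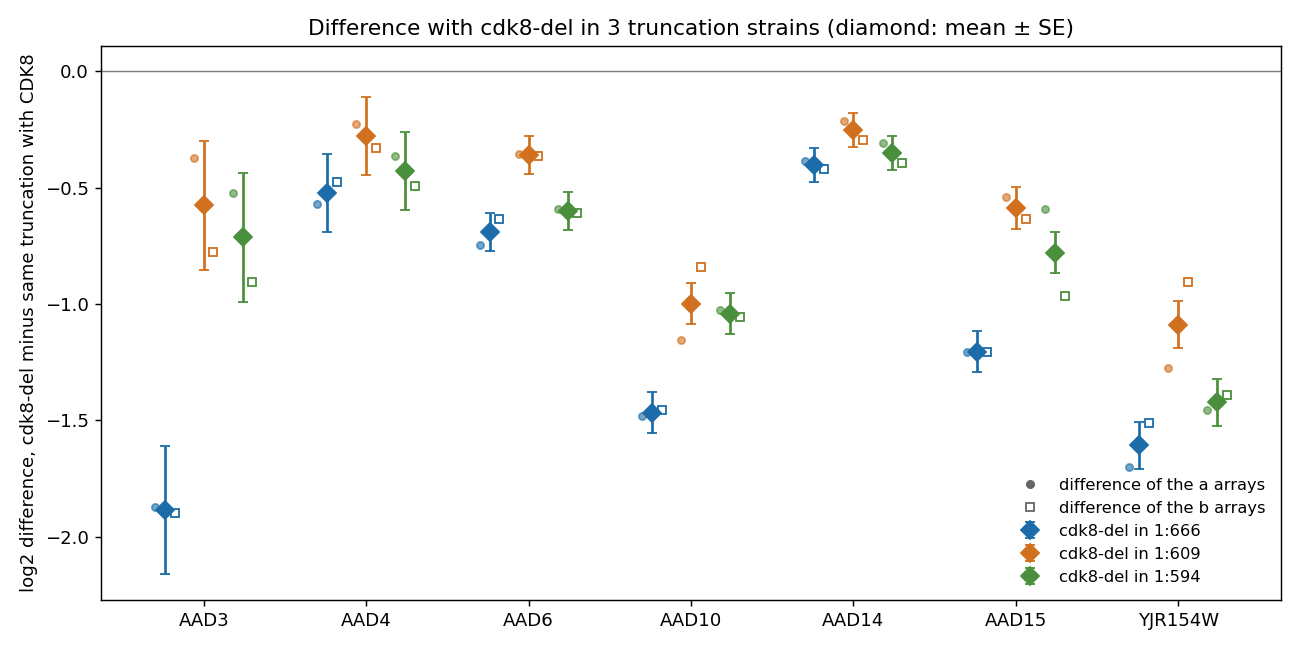
The vertical axis is the log2 difference of a truncation strain with cdk8-del minus the same truncation with CDK8, for 7 genes and 3 truncations; diamonds are means with the standard error of the fit, small circles and squares the differences of the a and of the b arrays. With this scaling all 42 array-wise differences lie below 0 (AAD4, AAD6 and AAD14 in 1:609 turn above it on external-control scaling), from the AAD14 values near it to the AAD3 values in 1:666 at -1.87 and -1.90.

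In each pair both cdk8-del arrays lay below both arrays with CDK8 for 7 of 7 genes, against 24.2%, 20.1% and 20.4% of all probes in 1:666, 1:609 and 1:594. All 7 were below 0 in all 3 pairs, against 31.4% of probes, though 4 of 7 in 1:609 on external-control scaling. For 6 of 7, the 6 cdk8-del arrays lay below the 10 other arrays, against 3.07% of probes, and below the 6 arrays of the same truncations, against 4.96%. The median difference of the 7 was -1.21, -0.58 and -0.71, where the median of all probes was 0.00 in each pair. These shares describe genes picked for this pattern and carry no test.

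Called lower with cdk8-del were 4 of 7 in 1:666 (AAD3, AAD10, AAD15 and YJR154W), 2 of 7 in 1:609 (AAD10 and YJR154W) and 3 of 7 in 1:594 (AAD10, AAD15 and YJR154W). Of all probes, 0.689%, 0.266% and 0.47% were called lower in these pairs, and 0.219% in all 3, as AAD10 and YJR154W were. The same values chose the genes, so nothing is read from these counts and they carry no test. With the array letter as a block, 169 probes in place of 104 were called in the 1:609 pair, and the 7 genes' calls were as without it. The AAD3 call in 1:666 was lost without the a array of 1:666, at -1.75, or without the b array of 1:666 cdk8-del, at -1.73. The AAD15 call in 1:594 was lost without the b array of 1:594, at -0.67, or without that of 1:594 cdk8-del, at -0.70. Without the b array of 1:666, AAD6 was called there, at -0.77. With median centring the calls of AAD15 in 1:666, of AAD10 and YJR154W in 1:609, and of AAD10 and AAD15 in 1:594 were lost. With external-control scaling AAD10 in 1:666 was the only call left, and plain background subtraction added AAD6 in 1:666 and AAD15 in 1:609.

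The direction depends in part on how the arrays are scaled. The values above assume that the typical gene is equal between strain and pool, and the series description reports that spiked-in RNA showed no global change. Scaled instead on the external control spots, the median of all probes was 0.23, 0.46 and 0.22 higher with cdk8-del in 1:666, 1:609 and 1:594; all 7 genes remained below 0 in 1:666 and 1:594, but in 1:609 AAD4 at 0.21, AAD6 at 0.07 and AAD14 at 0.24 turned above 0. Even so, each of the 7 lay below the median of all probes in each pair. Against the pool, the same scaling put the median of all probes at -0.73 in fcp1-mut and -0.60 in 1:713, with AAD10 at 0.14 and 0.09 and YJR154W at 0.25 and 0.30. In 1:609 and 1:594, where the median of all probes was -0.74 and -0.71, AAD10 turned below 0, to -0.41 and -0.47, and so did YJR154W, to -0.54 and -0.34. AAD6 turned below 0 in all 5 strains with CDK8, at -0.27, -0.25, -0.34, -0.59 and -0.45 in fcp1-mut, 1:713, 1:666, 1:609 and 1:594.

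All 7 probes were above background, by 3 standard deviations of it, in 32 of 32 spots in both channels. In the strain channel of 1:666 cdk8-del, however, AAD15 stood only 9.64 and 25.9 intensity units above the local background on the a and b arrays, and AAD3 27.8 and 48.5. The background correction adds an offset of 50 units, which pulls such ratios towards 0. With plain background subtraction AAD3 read -3.44 and AAD15 -3.10 against the pool in 1:666 cdk8-del, and in the 1:666 pair AAD3 differed by -3.04, AAD15 by -2.91 and YJR154W by -2.26 in place of -1.89, -1.21 and -1.61. The range of AAD15 over the 8 strains was then 3.14, above the 2.12 of AAD10 and the 2.52 of YJR154W.

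**Figure D3:**
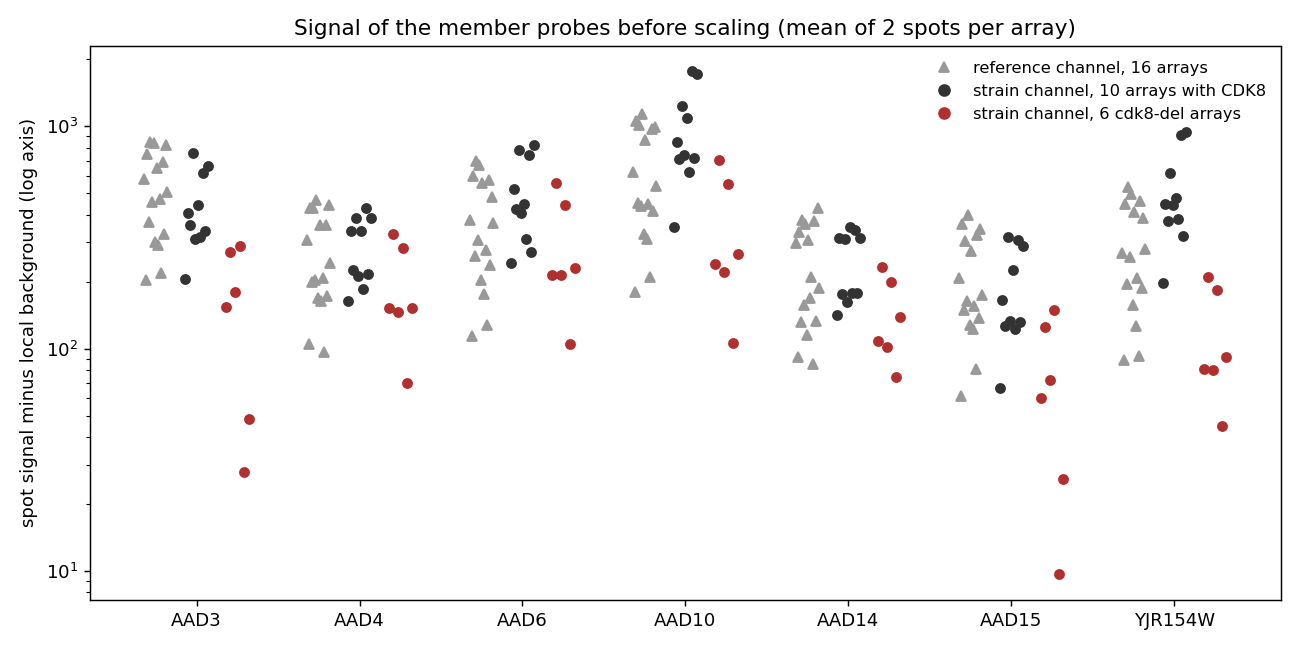
The vertical axis, on a log scale, is the spot signal minus local background before any scaling, for the 7 probes; grey triangles are the reference channel on 16 arrays, dark circles the strain channel on the 10 arrays with CDK8 and red circles that on the 6 cdk8-del arrays. For AAD3 and for AAD15 the 2 arrays of 1:666 cdk8-del lie apart below the other cdk8-del arrays. These arrays also had the lowest median strain signal of their letter, 291.7 on a and 624.1 on b, so the gap holds array brightness too. Signals of different probes cannot be set against each other.

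The truncations with CDK8 were next set against the longest one, 1:713. All 7 genes were below 0 in all 3 comparisons, against 32.3% of probes, and 0 of 7 were called lower, where 0.047%, 1.47% and 0.845% of probes were in 1:666, 1:609 and 1:594. YJR154W differed from 1:713 by -0.17 in 1:666, -0.69 in 1:609 and -0.52 in 1:594 (SE 0.101). AAD10 differed by -0.14, -0.42 and -0.52 (SE 0.0890), and both arrays of each truncation lay below both of 1:713 for these 2 genes. Of the 7 genes, 4, 7 and 5 had no overlap with 1:713 in 1:666, 1:609 and 1:594, against 16.6%, 26.1% and 24.2% of probes. Here too the same values chose the genes, so nothing is read from these counts. The median differences of the 7 were -0.16, -0.25 and -0.26. The 1:609 and 1:594 strains also differ from 1:713 in LYS2, in the FCP1 probe and in the alpha-specific genes, as given above. These comparisons share the 1:713 arrays. Without the a array of 1:609, YJR154W was called there, at -0.79.

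Genes of alcohol metabolism, other reductases and Yap1 targets were counted from lists chosen with earlier results of these data known, apart from the 7 members. In the list of the Ehrlich pathway and alcohol dehydrogenases, which turn amino acids into fusel alcohols and aldehydes into alcohols, 21 of 22 genes were measured. With cdk8-del, 2 were called higher in 1:666, 1 in 1:609 and 1 in 1:594, and 0 lower in each, where 3.3%, 1.36% and 1.68% of all probes were called higher; at an unadjusted p under 0.05 in limma, 5, 3 and 5 were lower. ADH2, the alcohol dehydrogenase used to oxidise ethanol, rose by 0.77, 0.93 and 0.97 (SE 0.0912, adjusted p 0.000198, 0.000159 and 9.47e-05 in limma). Against the pool it was called lower in 1:609 and 1:594, at -0.77 and -0.88, and was not called in any cdk8-del strain. ADH1, the main fermentative enzyme, rose by 0.85 in 1:666 (SE 0.162, limma adjusted p 0.00459). The list's medians were 0.01, 0.00 and 0.02, where those of the 7 members were -1.21, -0.58 and -0.71. BAT1, the mitochondrial branched-chain aminotransferase, was called lower against the pool in all 3 cdk8-del strains, at -0.83, -0.91 and -0.93. With cdk8-del it differed by -0.42, -0.33 and -0.27 in the 3 pairs and was not called. ADH5 was called lower against the pool in 1:609, 1:594 and 1:609 cdk8-del, at -0.94, -0.78 and -0.80. ATF2, also of this list, was called lower against it in 1:594 cdk8-del, at -0.78. The ADH2 call in 1:666 was lost without the a array of either strain, at 0.66 and 0.75, and the ADH1 call without either array of 1:666, at 0.82 and 0.88, or the b array of 1:666 cdk8-del, at 0.66.

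Of other aldo-keto reductases and NADPH-dependent carbonyl reductases, 14 of 16 were measured. With cdk8-del 4 were called higher and 1 lower in 1:666, and 1 was called higher and 0 lower in 1:609 and in 1:594. At an unadjusted p under 0.05 in limma, 5, 5 and 7 were higher and 1, 2 and 2 lower. The medians were 0.26, 0.18 and 0.26. YDL124W, an NADPH-dependent alpha-keto amide reductase, rose by 1.55, 0.92 and 0.98 (SE 0.121, limma adjusted p 1.01e-05, 0.00102 and 0.000568). Against the pool it was called lower in 1:609 and 1:594, at -0.91 and -0.99, and higher in 1:666 cdk8-del, at 0.83. It was not called against the pool in 1:609 cdk8-del or 1:594 cdk8-del. In 1:666 YJR096W rose by 1.02, GCY1, a glycerol dehydrogenase, by 1.22 and GRE3, an aldose reductase, by 0.84, while YGL039W, an aldehyde reductase, fell by 1.06 (limma adjusted p 2.14e-05, 0.00769, 0.000578 and 5.13e-05). The aryl-alcohol dehydrogenase genes were lower in the same pairs in which YDL124W was higher, except AAD4, AAD6 and AAD14 in 1:609 on external-control scaling. YGL039W, of the same list as YDL124W, was lower in these pairs too, at -1.06, -0.69 and -0.41, and was called in 1:666 only. The YDL124W call in 1:609 was lost without the b array of 1:609, at 0.89, or the a array of 1:609 cdk8-del, at 0.73. The GCY1 call was lost without any 1 of its 4 arrays, at 1.02 to 1.42, and the GRE3 call without the b array of 1:666 cdk8-del, at 0.72.

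Of the Yap1 targets of the oxidative stress response, other than the members, 25 of 26 were measured. YAP1 itself is counted in this list, and OYE3 is counted both here and among the other reductases. With cdk8-del 0 of the 25 were called in 1:666, where 7 rose and 3 fell with limma's unadjusted p below 0.05. In 1:609 and in 1:594, 1 was called lower. In those last pairs 3 and 4 rose, and 4 and 4 fell, at the same unadjusted limit. Nothing is read from these unadjusted counts, which have no share of all probes beside them. Of all probes, 3.3%, 1.36% and 1.68% were called higher in the 3 pairs, and 0.689%, 0.266% and 0.47% lower. The called gene of the list was YNL134C in both 1:609 and 1:594. It encodes an NADH-dependent aldehyde reductase and fell by 1.23 and by 1.01 (SE 0.123, limma adjusted p 0.000172 and 0.000541). The list's medians were 0.10, 0.02 and 0.01. GPX2, also of this list, was called lower against the pool in 1:666, 1:609 and 1:594, at -0.95, -1.28 and -1.445. It was called lower too in 1:609 cdk8-del and 1:594 cdk8-del, at -0.94 and -0.89. With cdk8-del GPX2 differed by 0.35, 0.34 and 0.56 in the 3 pairs and was not called. YNL134C was also called lower against the pool in 1:609 cdk8-del, at -0.77. Against 1:713, YDL124W in 1:594 was the only gene of the 3 lists called, and fell by 0.83 (SE 0.121, limma adjusted p 0.00172). That call was lost without either array of 1:594, at -0.87 and -0.78, or without the a array of 1:713, at -0.69. Under median centring and under external-control scaling every list gene call named here for the between-strain comparisons was lost, except those of YDL124W and YJR096W in 1:666.

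**Figure D4:**
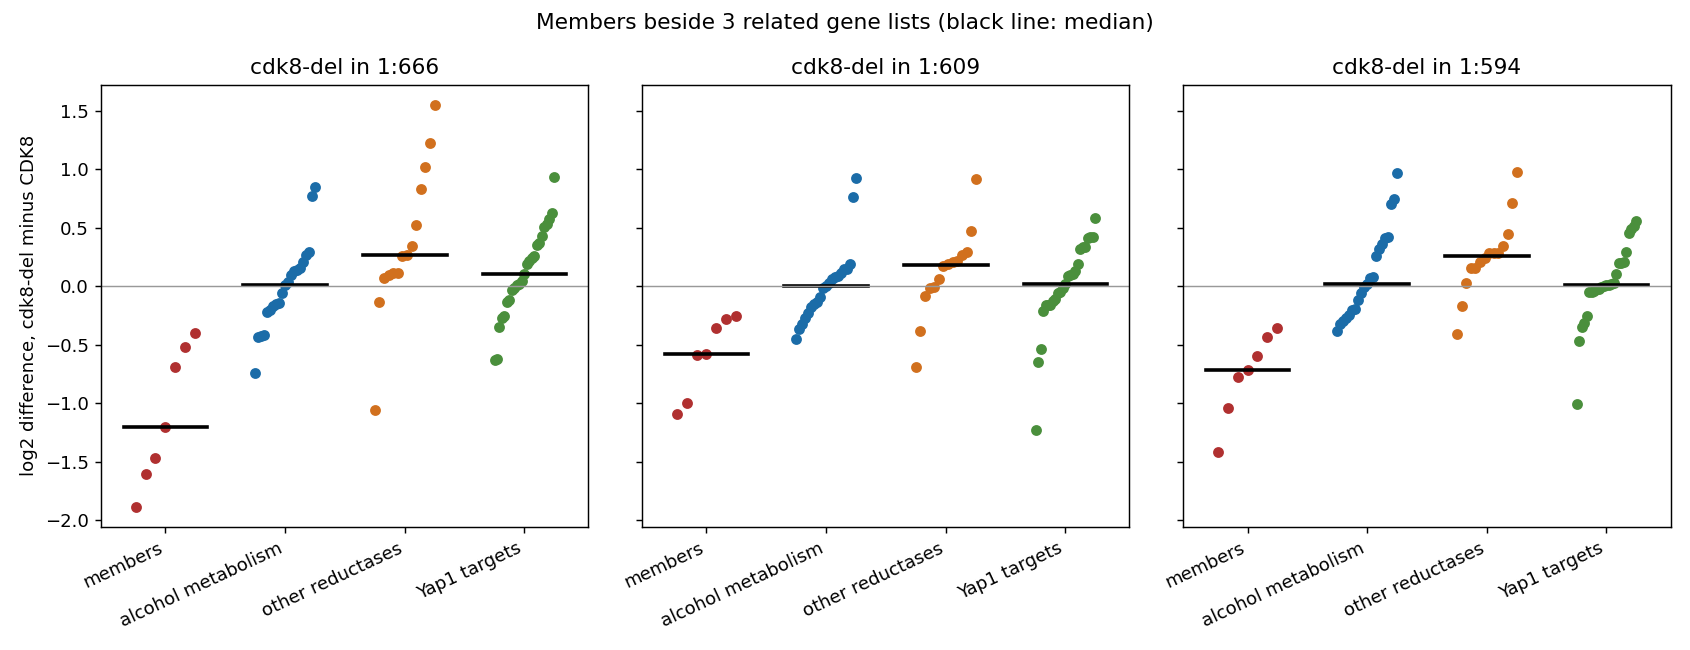
The vertical axis is the log2 difference of cdk8-del minus CDK8 for each gene, in 3 panels for the 1:666, 1:609 and 1:594 truncations; columns are the 7 members, 21 genes of the Ehrlich pathway and alcohol dehydrogenases, 14 other reductases and 25 Yap1 targets, and black lines are medians. The members lie below 0 in each panel (on external-control scaling AAD4, AAD6 and AAD14 do not in 1:609). Their medians are -1.21, -0.58 and -0.71, while the 3 lists have medians from 0.00 to 0.26. The Yap1 targets include YAP1 itself, and OYE3 is in that column and among the other reductases.

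The nearest measured genes on the chromosome were examined, up to 2 on each side of each member in RefSeq order, 20 genes apart from the members. With cdk8-del 0 of 20 were called in any of the 3 pairs. Of all probes, 3.3%, 1.36% and 1.68% were called higher in these pairs and 0.689%, 0.266% and 0.47% lower. At such shares few of 20 genes would be called, so nothing is read from this count. At an unadjusted p under 0.05 in limma, 3, 2 and 2 of the 20 were lower and 1, 5 and 2 higher. The share of all probes at that limit is not given, so nothing is read from these counts either. The values of the 20 genes ran from -0.46 to 0.42. Beside AAD10 and YJR154W, PGU1, a pectin-degrading enzyme gene, differed by 0.07, -0.06 and 0.10, and THI11, of the thiamine synthesis family, by 0.24, 0.32 and 0.18. Further out, DAL5 differed by 0.04, 0.01 and 0.04, and HXT16 by -0.34, -0.16 and 0.08. Beside AAD3, RDS1 differed by -0.45, -0.14 and -0.46, and ADH7, an alcohol dehydrogenase, by -0.20, -0.27 and -0.20. Beside AAD14, RPD3, a histone deacetylase, differed by 0.08, -0.06 and -0.12. SNZ3, DDI2, DDI3, THI11, SOR2 and HXT16 are among the neighbours with close copies elsewhere in the genome, so their values are uncertain.

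The genes whose pattern over the 8 strain means was most like that of each member were sought among 565 other genes whose strain means spanned at least the fold limit. For AAD10 these were URA1, of pyrimidine synthesis, with a correlation of 0.994, then GND1 and VHT1. For YJR154W they were IMD3, of guanine nucleotide synthesis, at 0.995, then VHT1 and HMS2. For AAD4 they were URA1, VHT1 and IMD3, and for AAD14 IMD3, URA1 and VHT1, with correlations of 0.977 to 0.983.

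VHT1, the plasma membrane biotin transporter, was thus among the 3 most alike for AAD4, AAD6, AAD10, AAD14 and YJR154W. For AAD6 the others were BIO2, biotin synthase, and BIO5, a transporter of a biotin precursor, both at 0.981. For AAD15 they were BIO2, AIF1 and BIO3, and for AAD3 AIF1, YGL039W and BIO2, at 0.952, 0.940 and 0.929. BIO2 differed with cdk8-del by -1.80, -1.22 and -1.43 and was called lower in all 3 pairs, whereas VHT1, at -1.10, -0.93 and -1.04, was called in 1:666 only. These genes were picked for their likeness over 8 points that share 1 reference pool, and nothing further is read from it.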

How the data were processed

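Two-colour spotted arrays of 15552 spots were used, 12776 of them gene spots for 6388 probes, each spotted 2 times. Per the labels, RNA was amplified and labelled by robot. The deposited scanner files give spot and background intensity for Cy5 and Cy3, as the authors' scan left it; the authors' deposited series table holds log2 ratios, used as an alternative, which correlated at 0.621 to 0.977 with the values here, and whose centring, scaling and tools are not given in the sources used here.

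Intensities were background-corrected (normexp, offset 50), scaled by lowess within each array (span 0.4), expressed as the strain's signal relative to the pool, averaged per probe, then fitted in limma 3.58.1 (R 4.3.3) with 8 strain means; Python 3.11.15 made the tables. The call limits, a fold of 1.7 and a p of 0.01, come from the series description, which does not state an adjustment; here p was adjusted by Benjamini and Hochberg's method. In simulated data for 1:594 against the pool over 6388 genes, 1, 19, 40 and 49 of 50 genes changed 1.5, 1.7, 2 and 4 times were called, and 0 of 6188 unchanged genes. The number of arrays limits the precision. Of the probes, 5326 carry 1 gene symbol, 1062 none; 5324 matched RefSeq R64, used for names and neighbours, which updated 58 symbols.

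The members and lists were chosen with earlier results of these data known. Named genes were the members, called genes of 3 lists (up to 8 a list), the 3 genes most correlated with each member, the nearest 2 measured genes on each side, and FCP1, SSN3, MET17 and LYS2. The letters a and b follow dye orientation: with strain means removed, each of 16 arrays matched best an array of its own letter (correlation between strains at least 0.599), so the letter was tried as a block. It kept every member's call, while the probes called for cdk8-del in 1:609 rose from 104 to 169. Other alternatives are in the closing section. A planned search of promoters for motifs was not run.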

Additional observations from a re-analysis of the deposited data

How the results depend on the processing

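Of 1064 values of single members recomputed under the alternatives, 902 moved by less than the spread between arrays, 162 moved by more and 0 calls changed sign. Of 168 between-strain values of named list genes, 46 lost their call and 122 kept it, and none turned. Order below is fcp1-mut, 1:713, 1:666, 1:609, 1:594, then the cdk8-del strains, unless pairs are named, and causes of the changes were not tested. Scaling on the external control spots turned the members' median against the pool from 0.15 to -0.58 in fcp1-mut and from 0.16 to -0.43 in 1:713, and gave -0.60, -0.87 and -0.78 in 1:666, 1:609 and 1:594 and -1.21, -1.004 and -1.34 with cdk8-del. It called 0, 0, 4 and 3 members in fcp1-mut, 1:713, 1:609 and 1:594 and 7 in 1:594 cdk8-del, and 2095, 234, 416, 1928 and 1604 probes in the strains with CDK8 and 631 in 1:594 cdk8-del. Against 1:713 it gave medians of -0.44 in 1:609 and -0.50 in 1:594, and 0, 8 and 4 probes. In the cdk8-del pairs of 1:666, 1:609 and 1:594 it gave medians of -1.01, -0.12 and -0.53, with 1, 0 and 0 members and 96, 56 and 21 probes called; 0, 0 and 0 Ehrlich genes, 2, 0 and 0 other reductases and, in 1:609 and 1:594, 0 and 0 Yap1 targets were called.

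Median centring called 0 members in 1:713 and 1 in 1:609 cdk8-del against the pool, 0 and 1 in the cdk8-del pairs of 1:609 and 1:594, and gave a median of -0.45 for 1:594 against 1:713. It called 23 probes in 1:666, 0, 49 and 37 against 1:713, and 107, 52 and 41 in the cdk8-del pairs, with 0, 0 and 0 Ehrlich genes, 2, 0 and 0 other reductases, and 0 Yap1 targets in 1:609 and in 1:594. Plain background subtraction gave medians of -1.17 in 1:666 cdk8-del and -1.75 for its pair, called 1 member in 1:666 and 1 in 1:609 against 1:713, and called 18, 77, 328, 275, 383 and 390 probes in 1:713, 1:666, 1:609, 1:594, 1:666 cdk8-del and 1:609 cdk8-del, 9, 206 and 154 against 1:713, and 1 Ehrlich gene in the 1:666 pair, 2 in the 1:594 pair and 2 Yap1 targets there. Print-tip lowess and the deposited log2 ratios each called 0 Ehrlich genes in the 1:666 pair; the latter called 25 and 18 probes in fcp1-mut and 1:713, 11 in 1:666 against 1:713 and 160 in the 1:609 pair. With the replicate block these 4 counts were 23, 18, 12 and 169, and no member's call changed; without it the count in the 1:609 pair was 104.

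Leaving out 1 array, the members' median ran from 0.032 to 0.35 in fcp1-mut, from 0.065 to 0.31 in 1:713, from -0.097 to 0.085 in 1:594, from -0.75 to -0.59 in 1:609 cdk8-del and from -0.55 to -0.37 in the 1:609 pair. Members called ran from 0 to 1 in 1:666, 1 to 3 in 1:609 cdk8-del and 0 to 1 for 1:609 against 1:713. Probes called ran from 21 to 28 in 1:666, 66 to 72 in the 1:609 pair and 80 to 147 in the 1:594 pair, and were 1 for 1:666 against 1:713. Ehrlich genes called ran from 1 to 2 in the 1:666 and the 1:594 pairs, other reductases from 3 to 4 in 1:666 and 0 to 2 in 1:609, and Yap1 targets from 0 to 1 in 1:666. With 1 array left, a strain is taken to vary like the others. The small number of arrays and the weak signal of AAD3 and AAD15 in 1:666 cdk8-del limit the sizes given.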
